A study of Mus musculus with 8 samples.

Results

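The NF-kB subunits and the IkB proteins that hold them in check were followed at the transcript level in neutrophils with and without the small GTPase Arf6. The 10 genes were chosen by name, as the canonical subunits Rela, Rel and Nfkb1, the alternative subunits Relb and Nfkb2, the classical IkB genes Nfkbia, Nfkbib and Nfkbie, and the nuclear IkB genes Nfkbiz and Bcl3. A gene was read from every probe set that carried its symbol and no other. In the annotation used, 9 of the 10 genes had such a probe set, 1 each, and all 9 passed the filter on dim probe sets, among 13296 genes tested. Nfkb1 was not analysed here. Relb, Nfkbib and Bcl3 lie on chromosome 7, Rela and Nfkb2 on 19, Rel on 11, Nfkbia on 12, Nfkbiz on 16 and Nfkbie on 17.

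The cells were neutrophils that had migrated into air pouches, a subcutaneous cavity model of inflammation, in mice given lipopolysaccharide (LPS) in the pouch. The Arf6 conditional knockout (cKO) was flox+/+Cre+/+ and had 3 arrays, the flox control was flox+/+Cre-/- and had 3 arrays, and the Cre control was flox-/-Cre+/+ and had 2 arrays. All groups received LPS, so there was no unstimulated group, and the comparisons below ask which family transcripts differed with Arf6 under that stimulus. The series title places the study on glycolysis and effector functions. Per the labels, 1 array stands for a pool of cells from 5 mice, enriched by negative selection to 98% Ly6G-positive cells. The sources used here name neither the promoter that drives Cre nor the age of the mice.

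The 8 arrays were alike in scale, with medians of 5.41 to 5.48 on the log2 scale. Arf6 read 6.49, 6.06 and 6.20 in the cKO, against 8.19, 8.20 and 7.68 in the flox control and 7.79 and 7.86 in the Cre control. Its log2 fold change against both controls was -1.67 (SE 0.15, limma adjusted p = 0.0122), and every cKO array lay below every control array. The source names of the samples contradict their titles and genotype labels and were not used. A pair of pools stood apart in sex-linked transcripts. Xist read 5.46 in flox control 1 and at least 7.84 elsewhere, while the Y-linked Eif2s3y read 4.08 in cKO 1 and at least 8.66 elsewhere. The neutrophil genes S100a8, S100a9 and Csf3r read 13.10 or more in all 8 arrays. Of 17 neutrophil markers, 16 were measured, and the log2 of their summed level ranged over 16.70 to 16.81 in the cKO, 16.78 to 16.82 in the flox control and 16.64 to 16.68 in the Cre control. By gene, 14 of the 16 were lower in the Cre control than in the flox control, 5 of them at an unadjusted p under 0.05 (31.2%, against 7.8% of all genes tested), and 9 lay wholly below it, as did 17.4% of probe sets. Camp had a log2 fold change of -0.84 there, Ngp -0.68 and Ly6g -0.49. In the cKO, 13 of the 16 were higher than in the Cre control and 11 were lower than in the flox control, none at an unadjusted p under 0.05. The part of this difference in the values below was not tested.

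NF-kB is a family of dimeric transcription factors that rest in the cytoplasm bound to IkB proteins. In the canonical pathway, receptors such as the LPS receptor TLR4 activate the IkB kinase complex, which phosphorylates the classical IkB proteins, marks them for degradation and frees dimers of RelA, c-Rel and the Nfkb1 product. In the alternative pathway, receptors of the TNF family stabilise the kinase NIK (Map3k14), and the Nfkb2 precursor is cut to a shorter form that pairs with RelB. Several of these genes are themselves NF-kB targets. Newly made IkB-alpha from Nfkbia enters the nucleus and ends a round of signalling, which is the textbook negative feedback loop of the pathway. The nuclear IkB proteins act on chromatin: IkB-zeta (Nfkbiz) is needed for late LPS genes in mouse macrophages, and Bcl3 binds dimers that lack an activation domain. In neutrophils the pathway is known for cytokine output and for survival after they leave the blood.

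Promoter sequences of the family are shown first, since NF-kB binds a short, well-defined site and several of these genes are known targets of it. RefSeq promoter windows of the mouse build GRCm38.p6, from 250 bases before to 50 bases after each annotated start, were searched on both strands for the kB consensus of 10 bases. This site opens with GGG and a purine, has any base at the next pair of positions, and closes with a pair of pyrimidines and CC. The table held 7 of the 10 genes. Of these, 5 (71.4%) had at least 1 match, namely Rel, Nfkb2, Nfkbia, Nfkbie and Bcl3, while the windows of Rela and Nfkbib had none. A match was present for 9.55% of the 27025 genes in the table and for 12.4% of the 10335 tested genes it held. Of 32851 windows, 8.46% held a match. A match describes the letters only and is not evidence of binding in these cells.

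Nfkbia and Nfkb2 carry their matches close to the start. The 250 bases before the start are given 5′ to 3′ on the strand of the gene, in lower case with the consensus matches in capitals. Nfkbia lies on the minus strand (chr12:55492648-55492897) and Nfkb2 on the plus strand (chr19:46304487-46304736, the most upstream of its 3 starts in the table). Rela, on the plus strand (chr19:5637291-5637540), is shown beside them as the subunit gene without a match.
Nfkbia: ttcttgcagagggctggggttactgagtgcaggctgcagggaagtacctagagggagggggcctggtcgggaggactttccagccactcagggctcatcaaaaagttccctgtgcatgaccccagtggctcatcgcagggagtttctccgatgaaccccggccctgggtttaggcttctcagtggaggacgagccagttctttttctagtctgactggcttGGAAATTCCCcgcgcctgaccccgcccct
Nfkb2: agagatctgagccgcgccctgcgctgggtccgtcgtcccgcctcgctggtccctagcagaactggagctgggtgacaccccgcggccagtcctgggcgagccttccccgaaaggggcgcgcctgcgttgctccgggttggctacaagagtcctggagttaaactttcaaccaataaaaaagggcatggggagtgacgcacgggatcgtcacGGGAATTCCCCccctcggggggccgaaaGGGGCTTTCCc
Rela: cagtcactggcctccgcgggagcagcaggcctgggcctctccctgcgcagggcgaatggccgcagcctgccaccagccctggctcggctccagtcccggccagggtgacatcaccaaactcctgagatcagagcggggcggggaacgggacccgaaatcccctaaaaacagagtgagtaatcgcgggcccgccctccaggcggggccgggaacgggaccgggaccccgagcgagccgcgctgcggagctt

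With the start base counted as 0 and bases before it as negative, the single Nfkbia match ran from -29 to -20. It fits the consensus only on the strand opposite to the gene, as the reverse complement of the bases printed. At the first Nfkb2 start, a pair of overlapping matches began at -39 and -38, and a further one ran from -11 to -2. The match at -38 likewise fits only on the opposite strand. The other Nfkb2 starts also held matches, so all 3 windows of this gene did. In the remaining genes the match with 10 flanking bases on each side was as follows, again with the consensus in capitals. The Rel match is printed on the minus strand, that of the gene (chr11:23771042-23771071), began at -92 and fits the consensus on both strands. An overlapping match 1 base on fits only on the strand opposite to the gene, and the capitals mark the first of the pair. The Nfkbie match lies on the plus strand (chr17:45555584-45555613) and ran from -106 to -97. The Bcl3 match is printed on the minus strand, that of the gene (chr7:19822734-19822763), and ran from 2 to 11, past the start. It also fits on both strands. The last line gives the site shared by the windows of the other Nfkb2 starts (chr19:46305695-46305724, plus strand).
Rel: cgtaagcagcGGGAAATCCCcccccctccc
Nfkbie: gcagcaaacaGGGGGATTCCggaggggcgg
Bcl3: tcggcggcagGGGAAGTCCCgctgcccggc
Nfkb2, other starts: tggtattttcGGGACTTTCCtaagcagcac

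**Figure D1:**
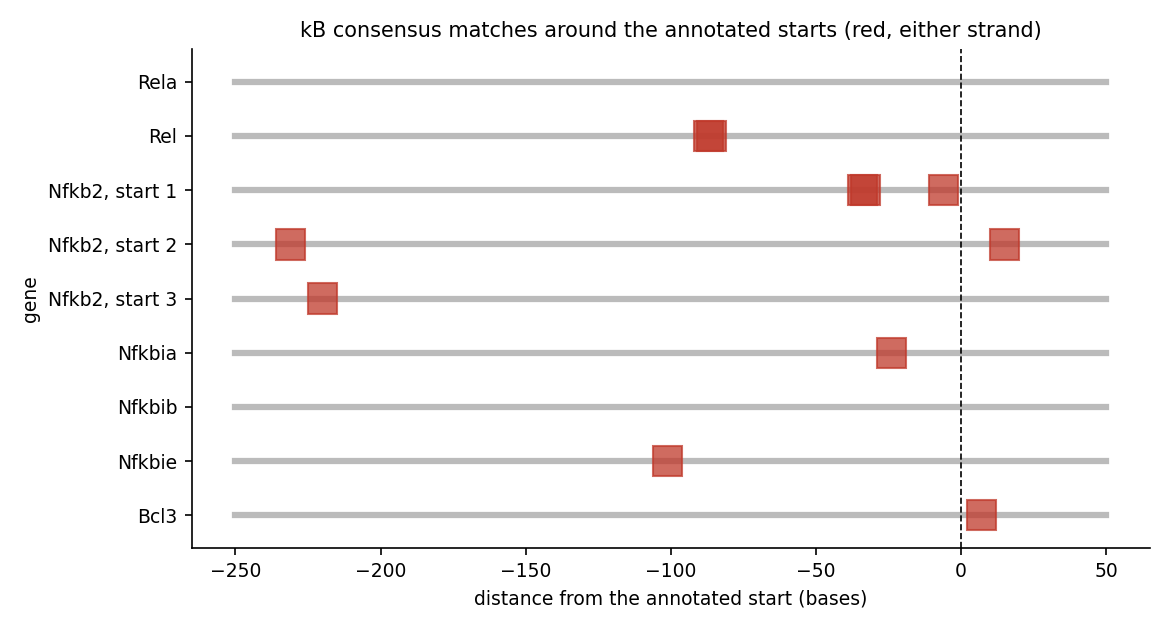
Position of kB consensus matches (red blocks) in the promoter windows of the NF-kB and IkB genes, in bases from the annotated start (dashed line), with 1 row per gene or start. Rel, Nfkb2, Nfkbia, Nfkbie and Bcl3 hold matches, and the rows of Rela and Nfkbib are empty.

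In the values as deposited, all 9 measured genes had a lower mean in the cKO than in either control group, except that Rela turned just above the Cre control when the arrays were rescaled by quantile or median. None of the 9 passed the adjusted threshold of 0.05 in any comparison. Against both controls, the alternative subunits Relb and Nfkb2 had the widest gaps among the subunits, while Rela was nearly level. Among the IkB genes, Nfkbib and Bcl3 showed the wider gaps and Nfkbie the narrowest. Values below are log2 levels by array, normalized by the authors, so a difference between groups is a log2 fold change of array signal. In pooled cells, fewer cells of a type and less RNA per cell cannot be told apart.

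Among the canonical subunits, Rela encodes RelA, the main activating subunit of the pathway. Its level was 11.80, 11.78 and 11.91 in the cKO, against 12.04, 11.91 and 11.83 in the flox control and 11.88 and 11.84 in the Cre control. The groups overlapped throughout, and the whole spread of the 8 arrays was 0.26. The log2 fold change against both controls was -0.06 (SE 0.10, adjusted p = 0.909), with a 95% interval of -0.28 to 0.16.

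Rel encodes c-Rel, the activating subunit most tied to cytokine genes of blood cells. It read 11.89, 11.98 and 12.21 in the cKO, against 11.86, 12.17 and 12.69 in the flox control and 12.58 and 12.43 in the Cre control. All cKO arrays lay below both Cre controls, but the flox controls ran from the lowest to the highest value of the 8. Against both controls the log2 fold change was -0.35 (SE 0.18, adjusted p = 0.581), and it was -0.23 without flox control 3. Rel was also the only one of the 9 genes with a higher mean in the Cre control than in the flox control.

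The alternative subunit Relb encodes RelB, the partner of the cut Nfkb2 product. Its level was 9.77, 9.95 and 10.19 in the cKO, against 10.52, 10.53 and 10.57 in the flox control and 10.47 and 10.24 in the Cre control. Each cKO array lay below all 5 control arrays, with cKO 3 only just under Cre control 2. Relb had the smallest p of the 9 genes in limma, with a log2 fold change of -0.48 (SE 0.12, adjusted p = 0.334). That corresponds to 71.7% of the control level, and the 95% interval of the log2 fold change was -0.75 to -0.21.

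Nfkb2 encodes the precursor that both supplies the partner of RelB and, uncut, restrains dimers as an IkB. It read 10.92, 11.10 and 11.32 in the cKO, against 11.50, 11.69 and 11.74 in the flox control and 11.49 and 11.29 in the Cre control. All cKO arrays were below the flox controls, and cKO 3 was above Cre control 2. The log2 fold change against both controls was -0.40 (SE 0.12, adjusted p = 0.379).

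Nfkbia, the feedback inhibitor with the match near its start, read 13.26, 13.20 and 13.37 in the cKO. The flox control had 13.53, 13.60 and 13.61, and the Cre control had 13.57 and 13.39. The groups did not overlap, although cKO 3 lay just under Cre control 2. These values sit near the top of the arrays, whose highest probe sets read 14.10 to 14.17. Against both controls the log2 fold change was -0.25 (SE 0.10, adjusted p = 0.464).

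Nfkbib encodes IkB-beta, a classical inhibitor that is degraded more slowly than IkB-alpha. Its level was 10.26, 10.20 and 10.61 in the cKO, against 10.98, 10.75 and 10.90 in the flox control and 10.75 and 10.51 in the Cre control. Against both controls its log2 fold change was -0.39 (SE 0.13, adjusted p = 0.402). The cKO arrays were all below the flox controls, and cKO 3 lay above Cre control 2. Nfkbie, which encodes IkB-epsilon, a delayed feedback inhibitor in mouse fibroblasts, read 10.98, 11.41 and 11.43 in the cKO, against 11.51, 11.56 and 11.73 in the flox control and 11.41 and 11.35 in the Cre control. Only cKO 1 was far below the rest. Against both controls the log2 fold change of Nfkbie was -0.22 (SE 0.13, adjusted p = 0.639) with that array and -0.08 without it.

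Of the nuclear IkB genes, Nfkbiz read 12.19, 12.39 and 12.44 in the cKO, against 12.59, 12.75 and 13.01 in the flox control and 12.70 and 12.48 in the Cre control. The cKO arrays lay below every control, the nearest pair being cKO 3 and Cre control 2. The log2 fold change was -0.35 (SE 0.13, adjusted p = 0.435). Bcl3 read 12.01, 11.25 and 11.98 in the cKO, against 12.32, 12.23 and 12.09 in the flox control and 12.14 and 12.07 in the Cre control. Here too the groups did not overlap, but cKO 2 alone was far down. The log2 fold change of Bcl3 was -0.41 (SE 0.17, adjusted p = 0.493), and -0.17 without cKO 2.

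**Figure D2:**
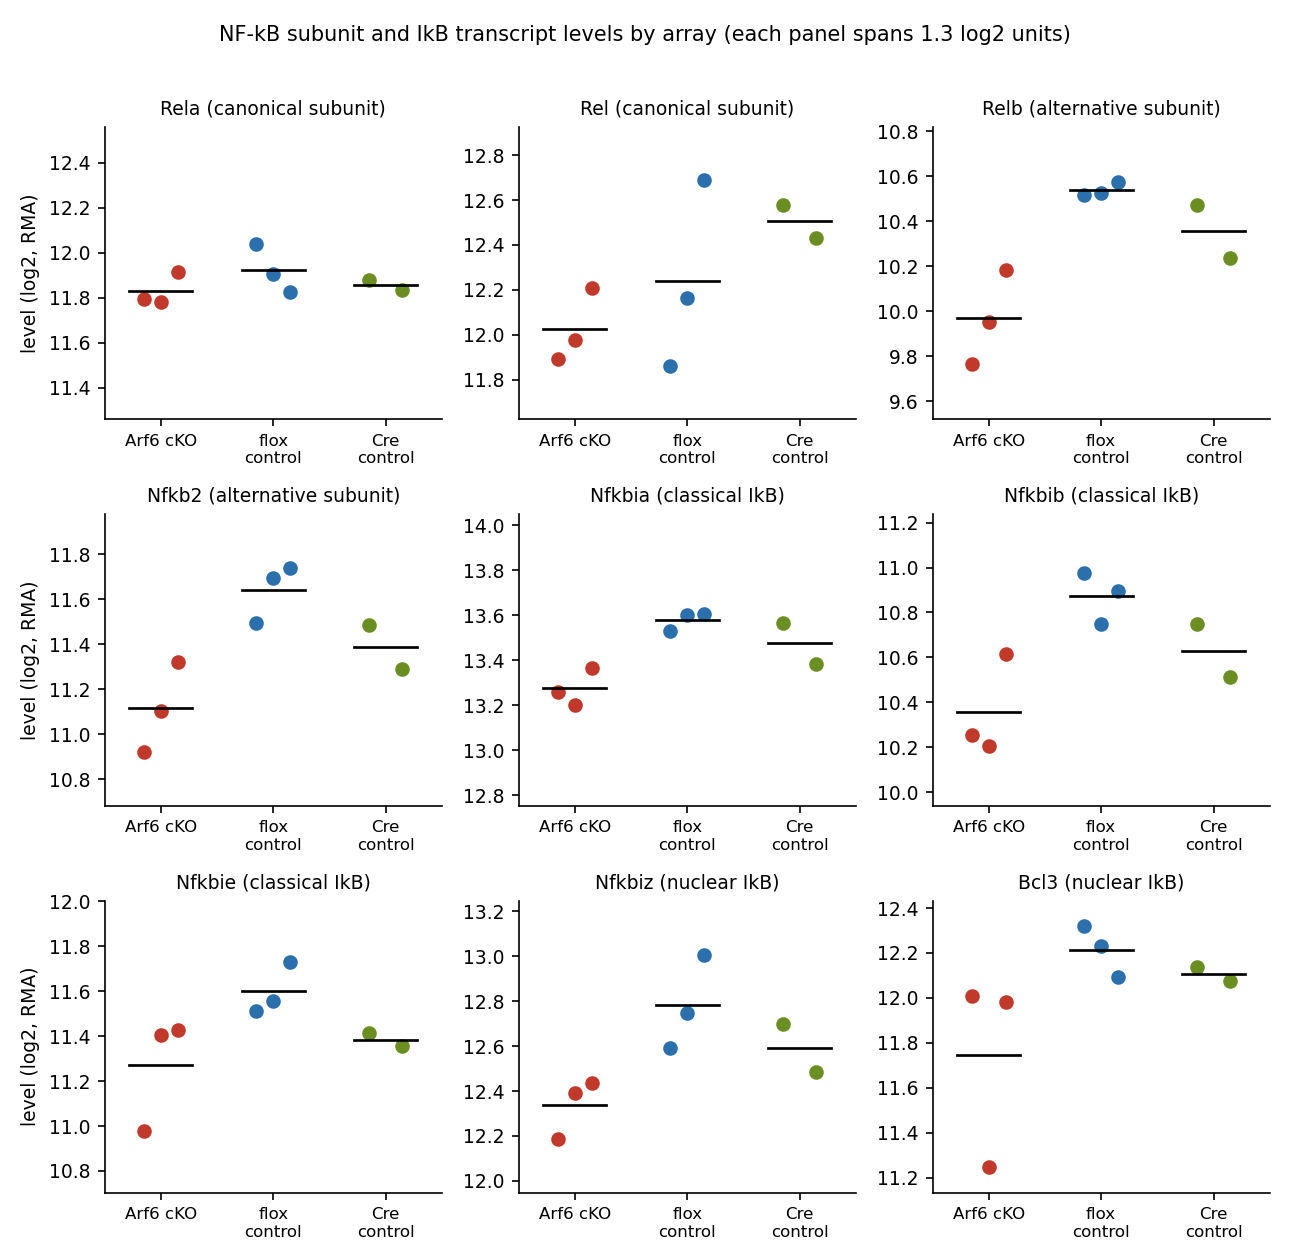
Log2 level of the 9 measured genes in each array (points, replicates 1 to n from left to right) with the group mean (line), for the cKO, flox control and Cre control, each panel spanning the same log2 width. Relb, Nfkbia, Nfkbiz and Bcl3 have all 3 cKO points below all 5 control points, and Rela has no separation.

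Read as a set against both controls, 9 of 9 genes had a log2 fold change below 0, where 46.6% of the 14002 probe sets tested did. The genes were chosen with earlier results of these data known. Several of them ran together across the arrays, so the 9 are not separate observations. The median of the 9 was -0.35, against 0.01 over all genes tested. An unadjusted p under 0.05 with a lower cKO level was found for 6 of the 9 (Relb, Nfkb2, Nfkbia, Nfkbib, Nfkbiz and Bcl3) and for 4.26% of all probe sets. All cKO arrays lay below all controls for 4 of the 9 (Relb, Nfkbia, Nfkbiz and Bcl3) and for 2.25% of all probe sets. None of the 9 was called after adjustment, where 0.00714% of probe sets were (Arf6 itself). The count of 6 fell to 2 without cKO 1, and to 3 without cKO 2 or without Cre control 1. Without both sex-distinct pools (cKO 1 and flox control 1), the count was 4. Relb, Nfkbia, Nfkbiz and Bcl3 again did not overlap there, against 5.85% of all probe sets. Leaving out arrays cannot create an overlap, so that outcome was fixed in advance and is no test of these pools.

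Against the flox control, which shares the floxed allele and lacks Cre, the gaps were wider for every gene but Rel. Relb had a log2 fold change of -0.57 (SE 0.13, adjusted p = 0.348) and Nfkb2 of -0.53 (SE 0.14, adjusted p = 0.355). The inhibitor genes followed with Nfkbib at -0.52 (SE 0.14, adjusted p = 0.370), Bcl3 at -0.47, Nfkbiz at -0.44, Nfkbie at -0.33 and Nfkbia at -0.30. The canonical subunits had -0.21 for Rel and -0.09 for Rela. All 9 were below 0 (8 without flox control 3, where Rel was not), against 47.6% of probe sets, and 7 had an unadjusted p under 0.05, against 3.98%. The same 7, all but Rela and Rel, lay wholly below the flox control, against 6.31% of probe sets. The adjusted test called none of the 9, against 0.0429% of probe sets. Without the sex-distinct pools 4 of the 9 had an unadjusted p under 0.05. The same 7 lay wholly below the flox control there, against 14.9% of all probe sets, which leaving out arrays could not undo.

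Against the Cre control, which carries Cre without the floxed allele, all 9 genes were again below 0, where 48% of probe sets were. The count was 8 after quantile scaling or median centring (Rela), and 8 without cKO 1 or without both sex-distinct pools (Nfkbie). The gaps were narrower for every gene but Rel. Rel had the widest log2 fold change, -0.48 (SE 0.22, adjusted p = 0.379), followed by Relb at -0.39 (SE 0.15, adjusted p = 0.303) and Bcl3 at -0.36. Nfkb2 and Nfkbib had -0.27 each, Nfkbiz -0.25, Nfkbia -0.20, Nfkbie -0.11 and Rela -0.03. Relb alone had an unadjusted p under 0.05, which is 1 of 9 against 5.96% of probe sets. For 5 genes (Rel, Relb, Nfkbia, Nfkbiz and Bcl3) the cKO arrays lay wholly below both Cre controls, against 16% of probe sets. No gene of the 9 was called after adjustment, against 0.0714% of probe sets, and Relb lost its unadjusted p under 0.05 without cKO 1, cKO 2, Cre control 1 or the sex-distinct pools.

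In most of these genes the Cre control itself had a lower mean than the flox control, with no gene passing the test. Its log2 fold change was -0.26 for Nfkb2, -0.25 for Nfkbib, -0.21 for Nfkbie, -0.19 for Nfkbiz, -0.18 for Relb, -0.11 for Bcl3, -0.10 for Nfkbia and -0.07 for Rela. Rel ran the other way at 0.27 (SE 0.22, adjusted p = 0.625). So 8 of 9 were below 0, where 50.8% of probe sets were, and the median was -0.18. None of the 9 had an unadjusted p under 0.05 and a lower level, against 7.86% of probe sets, and none was called after adjustment, against 0.486%. The Cre controls lay wholly below the flox controls for Relb, Nfkb2, Nfkbib and Nfkbie, which is 4 of 9 against 17.4% of probe sets. The order of means was therefore cKO lowest, Cre control next and flox control highest for 8 genes, with the last 2 places exchanged for Rel. Between neighbours in that order, only Relb in the cKO against the Cre control had an unadjusted p under 0.05. All these comparisons share control or cKO arrays, so their values are given side by side and are not independent of each other. The log2 fold change against both controls is the mean of those against each control. Wider gaps against the flox control, narrower gaps against the Cre control and a Cre control below the flox control are therefore the same observation.

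**Figure D3:**
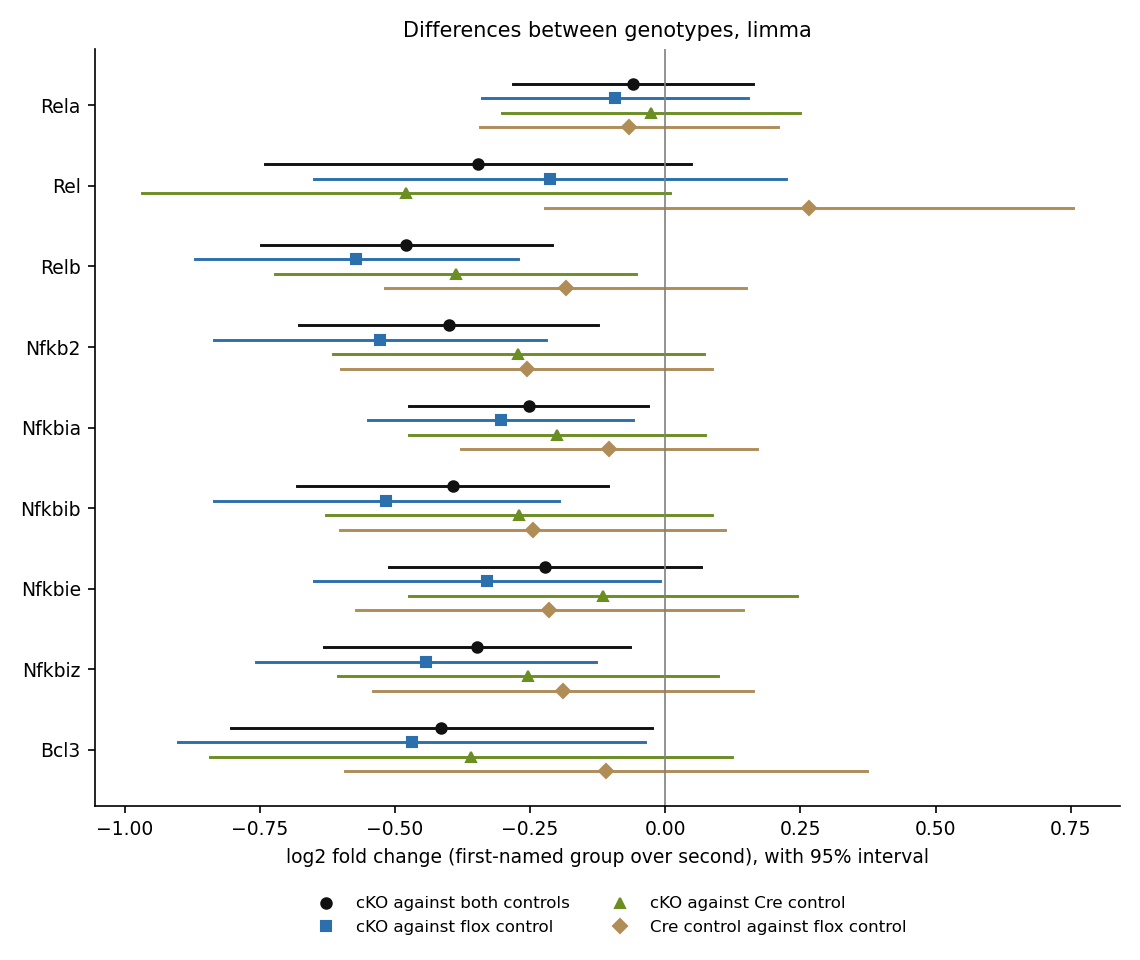
Log2 fold change (symbols) with its 95% interval (lines) for each of the 9 genes in 4 comparisons, of which 3 set the cKO against controls (both, flox alone, Cre alone) and the last sets the Cre control against the flox control. All cKO symbols lie left of 0 in the values as deposited, that of Rela against the Cre control turning to the right after quantile scaling or median centring, and the intervals of Rela span 0 in every comparison.

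The genes differed in how they moved from array to array. Each gene was set against its own mean over the 8 arrays and averaged by class. The alternative subunits stood at -0.49, -0.30 and -0.08 in the cKO, against 0.18, 0.28 and 0.33 in the flox control and 0.15 and -0.07 in the Cre control. The canonical subunits stood at -0.20, -0.17 and 0.01 in the cKO, against -0.10, -0.01 and 0.21 in the flox control and 0.18 and 0.09 in the Cre control. In both classes cKO 3 was the knockout array nearest to the controls. The classical IkB genes gave -0.33, -0.22 and -0.02 in the cKO, against 0.18, 0.14 and 0.25 in the flox control and 0.08 and -0.08 in the Cre control. The nuclear IkB genes gave -0.19, -0.47 and -0.08 in the cKO, against 0.17, 0.20 and 0.26 in the flox control and 0.13 and -0.01 in the Cre control. In the nuclear class cKO 2 was the lowest array, with Bcl3 at -0.76 there. The mean level over the 9 genes was 11.45, 11.47 and 11.72 in the cKO, against 11.87, 11.91 and 12.02 in the flox control and 11.89 and 11.73 in the Cre control, so cKO 3 and Cre control 2 were almost level. Differences between the classes were not tested.

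**Figure D4:**
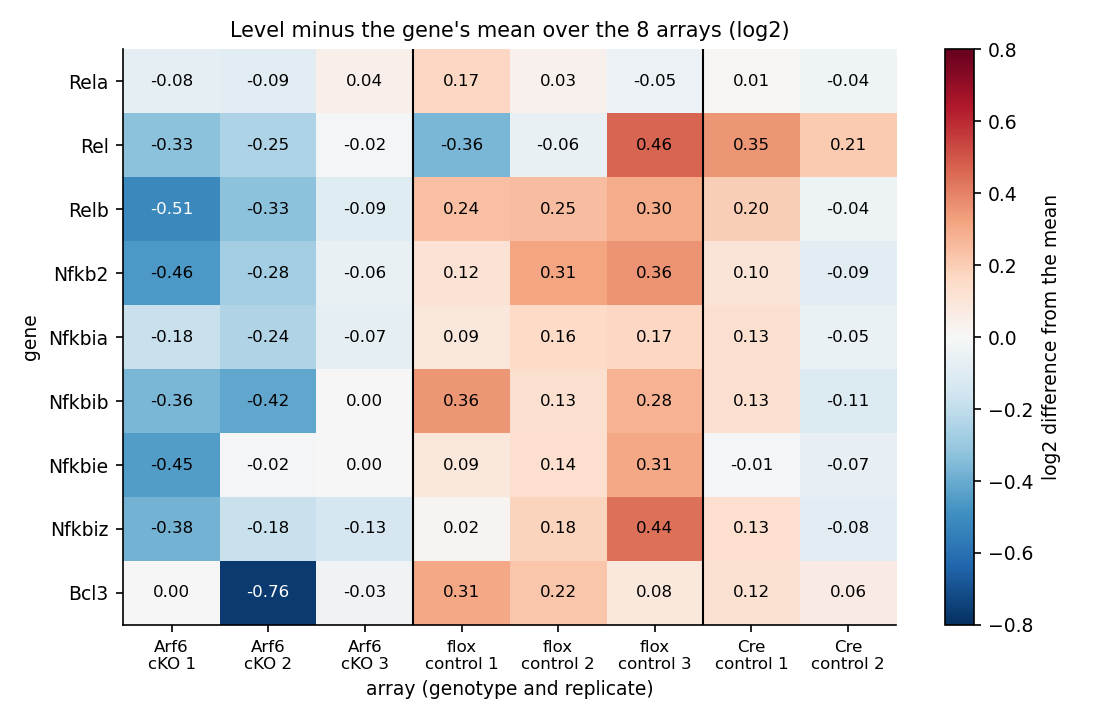
Log2 level of each gene minus its own mean over the 8 arrays, by array, with red above and blue below the mean and the value printed in each cell; black lines part the cKO, flox control and Cre control. The cKO columns are mostly blue, cKO 3 is the palest of them, and Bcl3 has its lowest value in cKO 2 at -0.76.

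Relb and Nfkb2, the partners in the alternative dimer, followed each other most closely of all pairs, with a Pearson r of 0.967 across the 8 arrays. Relb also ran with Nfkbia (r = 0.951) and Nfkbib (r = 0.938), and Nfkb2 with Nfkbiz (r = 0.949). Rela and Rel, by contrast, had an r of -0.232, and Nfkbie and Bcl3 had 0.183. These values are descriptions over 8 arrays of 3 genotypes that were normalized together, so a difference between genotypes enters every one of them.

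Outside the family, the array patterns most like those of the 9 genes were ranked over 11945 named genes. Closest to Relb was Il1a, the cytokine interleukin-1 alpha (r = 0.978), followed by Pcmt1, a protein repair methyltransferase (0.975), and Stx6, a syntaxin of the trans-Golgi network (0.973). Nfkb2 was matched by Il10ra, a chain of the interleukin-10 receptor (0.978), by the zinc finger gene Zfp131 (0.967) and by Il23a, a subunit of interleukin-23 (0.961). Nfkbiz was matched by Chka, a choline kinase (0.977), again by Zfp131 (0.972), and by Irak2, a kinase downstream of Toll-like and interleukin-1 receptors (0.969). Zfp131 was thus among the 3 nearest genes of both Nfkb2 and Nfkbiz.

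Of the other family genes, Nfkbia and Nfkbib shared a neighbour. Nfkbia was closest to Aph1b, a gamma-secretase subunit (r = 0.983), then Polm and Zfp719, and Aph1b came second for Nfkbib, after Dstn, an actin-depolymerising factor (0.967), and before Ube2f. Bcl3 was closest to Ddx24, an RNA helicase (0.981), then Marcksl1 and C5ar1, the receptor for complement C5a (0.964). Nfkbie was closest to the sialyltransferase gene St3gal6 (0.972), then Bsnd and Crybb1. Rel was closest to Zcchc12 (0.988), then Resf1 and Mcm10, and Rela to Hlcs (0.986), then Svbp and Zfp691. With 8 arrays and 11945 candidates, these values of r are a description only.

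The rest of the pathway was read from named gene lists, to see whether its other tiers sat lower too. The kinases and adaptors of the canonical pathway were split, with 11 of 20 tested genes lower and 9 higher in the cKO than in both controls, and a median of -0.01. The protein kinase gene Map3k8, which is activated when the Nfkb1 precursor is degraded, read 11.47, 10.88 and 11.78 in the cKO, against 12.16, 11.88 and 11.83 in the flox control and 12.05 and 11.84 in the Cre control (log2 fold change -0.58, SE 0.19). The ubiquitin ligase gene Peli1 had -0.63 (SE 0.25), with -0.37 against the flox control and -0.90 against the Cre control. In the Cre control relative to the flox control Peli1 was at 0.53. Rnf31, a subunit of the linear ubiquitin ligase, had -0.40 (SE 0.17) against both controls. Running the other way, Ikbkg, the regulatory subunit of the IkB kinase, read 8.02, 8.32 and 7.56 in the cKO, against 7.31, 7.64 and 7.50 in the flox control and 7.28 and 7.52 in the Cre control (log2 fold change 0.52, SE 0.17, adjusted p = 0.398). Unadjusted p was under 0.05 for 3 lower genes and 1 higher gene of this list, where 4.26% of all probe sets were lower and 5.26% higher at that level. Adjustment left none of the list, against 0.00714% of all probe sets.

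The receptors and regulators of the alternative pathway had 7 of 11 tested genes lower and a median of -0.14, with 3 lower genes at an unadjusted p under 0.05 and none after adjustment. Over all 13296 genes tested, 46.4% were lower, 4.26% at an unadjusted p under 0.05. Against the flox control alone, 1 of the 11 was lower at that level, as were 3.87% of all genes tested. Against the Cre control alone 2 were, as were 5.86% of all genes tested. Traf2 and Birc2, which keep the kinase NIK unstable, had log2 fold changes of -0.27 (SE 0.11) and -0.32 (SE 0.14) against both controls, and Map3k14, which encodes NIK, 0.21 (SE 0.12). Birc2 was at -0.09 against the flox control and -0.56 against the Cre control, with 0.46 in the Cre control relative to the flox control, while Traf2 was at -0.41 against the flox control and -0.14 against the Cre control. The receptor gene Cd40 also stood apart between the control groups. It read 8.21, 7.91 and 8.35 in the cKO, against 8.09, 7.99 and 7.75 in the flox control and 9.06 and 8.91 in the Cre control. The log2 fold change of Cd40 was -0.31 (SE 0.13) against both controls, and 1.04 (SE 0.16, adjusted p = 0.0385) in the Cre control relative to the flox control.

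Genes for IkB turnover and precursor processing had a median of -0.04, with 6 of 10 lower, against 46.4% of all genes tested. A single gene, higher in the cKO, had an unadjusted p under 0.05. That gene was Usp15, a deubiquitinase, at 0.31 (SE 0.14), and Fbxw11, which recognises phosphorylated IkB, had -0.23 (SE 0.11). The E2 enzyme gene Ube2d1 had -0.49 (SE 0.24) and Cops5, a subunit of the COP9 signalosome, 0.25 (SE 0.13). Nuclear cofactors and modulators gave other counts, with 9 of 11 tested genes higher than in both controls and a median of 0.08. So 18.2% of the list was lower, against 46.4% of all genes tested. Against the Cre control alone 6 were higher and 5 lower. Among them Akirin2, which works with IkB-zeta in mouse macrophages, had 0.30 (SE 0.10) against both controls, with 0.13 against the flox control and 0.47 against the Cre control. Against both controls Ncoa3, a coactivator, had 0.28 (SE 0.15), Nfkbil1 0.22 (SE 0.18) and Pdlim2, a nuclear ubiquitin ligase for RelA, -0.29 (SE 0.17). Nfkbid, a further nuclear IkB gene, was counted in this list and not among the 10, and it was not lower against both controls. It had 0.09 (SE 0.12) there, with -0.13 against the flox control and 0.30 against the Cre control. In the Cre control relative to the flox control Nfkbid was at -0.43. No gene of either list passed the adjusted test.

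Transcripts known as NF-kB targets leaned the same way as the subunits and inhibitors. Of 39 target genes, all tested, 32 were lower in the cKO than in both controls, 18 of them with an unadjusted p under 0.05, and the median was -0.28. Over all 13296 genes tested, 46.4% were lower, 4.26% with an unadjusted p under 0.05. None of the 39 passed the adjusted test, against 0.00714% of all probe sets. This list holds genes already seen to be lower in these arrays, so its direction is no independent evidence. Il23a read 7.19, 7.05 and 8.25 in the cKO, against 9.26, 9.39 and 9.74 in the flox control and 8.66 and 7.95 in the Cre control (log2 fold change -1.38, SE 0.28, adjusted p = 0.245). Tnfaip3, which encodes the feedback inhibitor A20, read 12.78, 12.80 and 13.02 in the cKO, against 13.29, 13.30 and 13.33 in the flox control and 13.38 and 13.20 in the Cre control (log2 fold change -0.43, SE 0.10, adjusted p = 0.319). The cKO arrays lay below all controls for Tnfaip3, while for Il23a cKO 3 was above Cre control 2. Tnip3, a partner of A20, had -0.99 (SE 0.20) and the ligand gene Tnfsf9 -0.93 (SE 0.24). In the Cre control relative to the flox control, 21 of the 39 were lower, against 50.8% of all genes tested, and the median was -0.02. At an unadjusted p under 0.05, 6 were lower (15.4%, against 7.8% of all genes tested) and 2 higher. The Cre controls lay wholly below the flox controls for 7 and wholly above for 8, against 17.4% and 15.3% of probe sets. Il23a was among the lower at -1.16 (SE 0.34) and Ccl5 among the higher at 0.83 (SE 0.21).

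**Figure D5:**
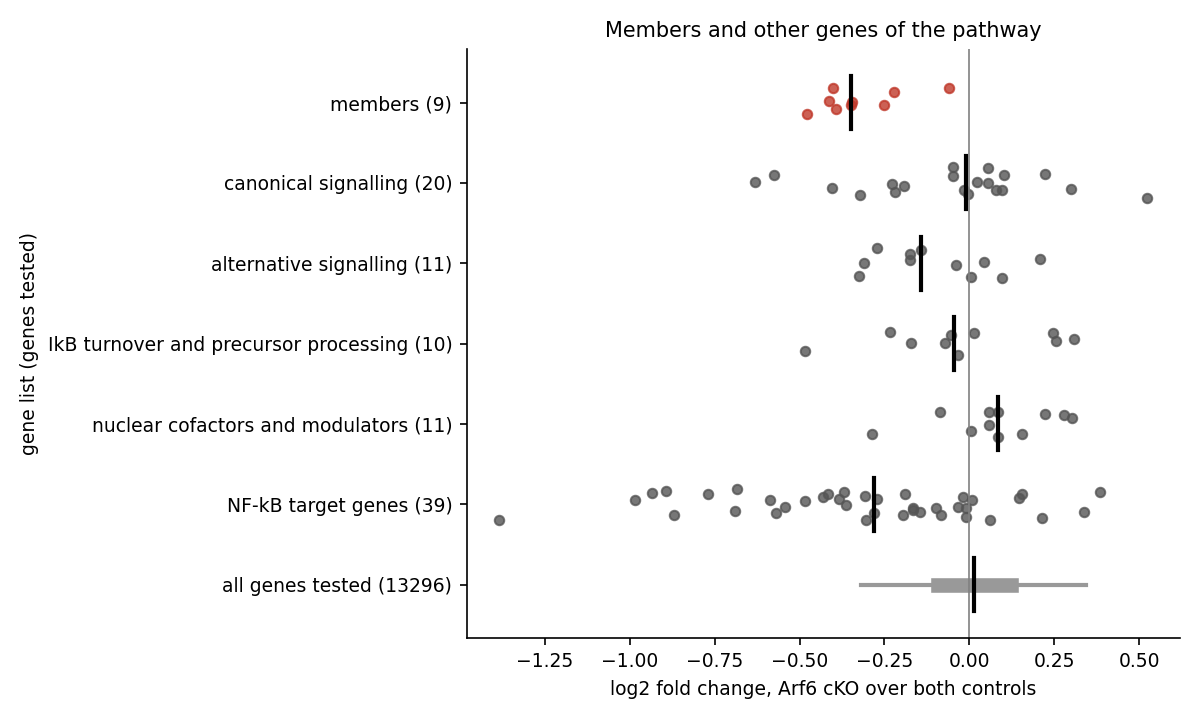
Log2 fold change of the cKO over both controls for each tested gene (points) of the NF-kB and IkB genes and of 5 other pathway lists, with the list median (black bar) and the number of genes tested in brackets; for all genes tested, the thick line spans the 25th to 75th and the thin line the 5th to 95th percentile. The medians of the 9 genes (-0.35) and of the target genes (-0.28) lie left of 0, and those of the other 4 lists lie between -0.14 and 0.08.

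Promoter matches were counted in the same lists. A kB consensus match was present for 13 of the 29 target genes in the promoter table (44.8%), against 2 of 18 canonical signalling genes (11.1%), 1 of 11 alternative signalling genes (9.09%), 1 of 8 turnover genes (12.5%) and 1 of 11 cofactor genes (9.09%). Among the members with a promoter sequence, those without a match were Rela, at -0.06 against both controls, and Nfkbib, at -0.39, while the 5 with a match ran from -0.22 (Nfkbie) to -0.41 (Bcl3).

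Markers of other cell types moved with some of the comparisons. The log2 of the summed dendritic cell markers, which include class II genes, ranged over 12.28 to 12.63 in the cKO, against 11.92 to 12.28 in the flox control and 12.40 to 12.44 in the Cre control. For T and NK cell markers the ranges were 10.18 to 10.36 in the cKO, against 9.65 to 10.12 in the flox control and 10.49 to 10.54 in the Cre control. Relative to the flox control, 7 of 9 tested dendritic and 8 of 9 tested T and NK markers were higher in the cKO. At an unadjusted p under 0.05, 3 and 2 were, as were 4.28% of probe sets. Against the Cre control 4 and 2 of 9 were higher, none at that level. Of all genes tested, 47.3% and 47.7% were lower in those comparisons. Wholly above the flox control lay 4 and 2, against 5.93% of probe sets. Wholly above the Cre control lay 1 of each, against 18.5%. Against both controls 8 of 9 dendritic markers were higher, none at that level. Of the T and NK markers 4 of 9 were, 2 at that level. Of probe sets 5.26% were higher there at that level, and 46.4% of all genes tested were lower. In the Cre control relative to the flox control, 8 of 9 T and NK markers were higher, 7 at an unadjusted p under 0.05. Of the dendritic markers, 6 of 9 were higher there, 3 at that level, with 1 lower at it. Of the macrophage and monocyte markers, 9 of 13 were higher there, 3 at that level. Of all probe sets, 6.85% were higher there at that level. Macrophage and monocyte markers summed to 13.98 to 14.01 in the cKO, against 13.80 to 14.13 in the flox control and 13.86 to 13.93 in the Cre control. Counted by gene, 3 of 13 tested macrophage and monocyte markers were lower in the cKO than in both controls at an unadjusted p under 0.05 (23.1%, against 4.26% of all genes tested). These were Apoe (log2 fold change -0.37), Adgre1 (-0.37) and C1qa (-0.31), named after their values were seen. Against the Cre control 9 of the 13 were lower and 7 lay wholly below it, as did 16% of probe sets, while against the flox control 5 were lower, none of them at an unadjusted p under 0.05. Of the T and NK markers 2 of 11 measured, and of the B cell markers 3 of 6, stayed under the level used as the filter for dim probe sets. The part of these cells in the NF-kB and IkB values was not tested.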

How the data were processed

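Transcripts were measured on Affymetrix Mouse Gene 2.0 ST arrays, 1 per pool of 5 mice. The authors deposited log2 values per probe set. Per the series' design text they come from Robust Multiarray Analysis (RMA) with background subtraction, run in Affymetrix Expression Console. In the sources used here, the genome build and software version are not given. The labels' protocols give 100 ng of total RNA per array and an RNA integrity number of at least 7. They and the design text name different RNA isolation reagents and labelling kits, which could not be settled.

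Groups came from the genotype labels. The design text states 3 pools per genotype, of which 1 from the Cre control was not analysed here. Of the array's 34472 probe sets, 23521 carried 1 symbol (brought to current names by gene identifier through RefSeq, GRCm38.p6), 1814 several and 9137 none. The 14002 with 1 symbol and a level above the median of all values (5.45) in at least 2 arrays were tested by limma 3.58.1 (R 4.3.3), fitting the 3 groups together, with 5 residual degrees of freedom and 4.69 from the prior. All p are two-sided. They were adjusted over all 14002 probe sets by Benjamini-Hochberg with a threshold of 0.05. SE marks a standard error from that fit. The number of arrays limits the precision, and the fit was tested on simulated data. For the cKO against both controls it recovered 96.05% of shifts of 1 log2 unit and 25.3% of shifts of 0.5. Of the simulated calls, 5.58% were false. Recovery after adjustment depends on how many genes are shifted and on their spread, so these shares need not hold for the arrays themselves. Il23a, at -1.38 in the cKO against both controls, was not called (limma adjusted p = 0.245). The widest gap of the 9 family genes in that comparison was -0.48 (Relb). A gene that failed the adjusted test is therefore not shown to be level.

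The genes, lists and tests were chosen with earlier results of these data known. All genes of the family list are named, with the 4 genes of smallest p in each pathway list and the 3 genes of highest r per family gene. The family list leaves out the nuclear IkB gene Nfkbid, which is given in addition with the nuclear cofactors and modulators. Marker lists were neutrophil, macrophage and monocyte, dendritic, T and NK, B, mast cell and eosinophil, fibroblast and erythroid. Alternatives were other filters, scalings, variance models, array weights, fits of the compared groups alone, the controls as 1 group, and leaving out each array or both sex-distinct pools.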

Additional observations from a re-analysis of the deposited data

How the results depend on the processing

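No alternative called any of the 9 genes in any comparison, and in the 16 for the cKO against both controls all 9 stayed below 0. The lowest adjusted p was 0.0970, for Relb without cKO replicate 3. Signs turned in these cases: Rel against the flox control was 0.012 without flox control replicate 3, with a range of -0.40 to 0.012 when arrays were left out in turn. Rela against the Cre control was 0.0192 after quantile scaling and 0.00997 after median centring. Nfkbie against the Cre control was 0.0315 without the sex-distinct pools and ranged from -0.19 to 0.0315 when arrays were left out. Counts of genes at an unadjusted p under 0.05, an alternative chosen after seeing the data, ranged over 2 to 6 against both controls, 4 to 7 against the flox control and 0 to 4 against the Cre control when arrays were left out. Without the sex-distinct pools they were 4 against both controls, 4 against the flox control and 0 against the Cre control. Against the Cre control this count was 2 with no filter, with variance trend and robust fitting, with array weights, and with only the compared groups in the fit. Probe sets past the adjusted threshold moved much more. Against both controls there were 1, with 13 under array weights, 0 without the sex-distinct pools and 0 to 31 with arrays left out. Against the flox control there were 6, with 12 under array weights, 0 with only the compared groups, 0 without the sex-distinct pools and 0 to 11 with arrays left out. Against the Cre control there were 10, with 5 without a filter, 4 with the stricter filter, 16 with variance trend, 145 under array weights, 5 with only the compared groups, 4 without the sex-distinct pools and 0 to 67 with arrays left out. For the Cre control against the flox control there were 68, with 42 under the stricter filter, 819 under array weights, 131 with only the compared groups, 24 without the sex-distinct pools and 0 to 235 with arrays left out. The causes were not tested. Each family gene had 1 probe set, so averaging probe sets changed nothing. Leaving out a Cre control leaves 1 array in that group, which is then assumed to vary like the others. No paired analysis was possible because the labels give the groups no shared replicate numbers.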

Other observations

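Further marker lists gave the values below, and their part in the NF-kB and IkB values was not tested. The log2 of the summed B cell markers ranged over 9.17 to 9.70 in the cKO, against 9.22 to 9.90 in the flox control and 9.59 to 9.60 in the Cre control. Mast cell and eosinophil markers ranged over 9.43 to 9.85 in the cKO, against 9.24 to 9.42 in the flox control and 9.50 to 9.80 in the Cre control. Fibroblast markers ranged over 8.96 to 10.23 in the cKO, against 9.15 to 9.98 in the flox control and 8.72 to 10.08 in the Cre control. The erythroid list had no probe set with a symbol of its own in the annotation used.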
